A study of Mus musculus with 6 samples.

Results

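The 8 genes described here encode mouse MHC class II and the machinery that loads it: H2-Aa, H2-Ab1, H2-Eb1, H2-DMa, H2-DMb1, H2-DMb2, Cd74, and their transcriptional master regulator Ciita. They were chosen by name, and all 8 were found among the 28208 genes that the matrices of 6 mouse kidneys had in common. Each kidney was dissociated and its cells were sequenced as 1 single-cell library, so that every group held 2 kidneys. Naive kidneys were untransplanted kidneys of male C57BL/6 (B6; I-Ab) mice aged 10 to 12 weeks. Rejecting kidneys came from BALB/c (I-Ad) mice aged 6 to 7 weeks and were transplanted into B6 males from which both own kidneys had been removed. Tolerized kidneys were transplanted in the same way into B6 males that also received intravenous BALB/c splenocytes treated with ethylenecarbodiimide (ECDI), once before and once after transplantation, an infusion of chemically fixed donor cells that is used to induce donor-specific tolerance. Transplanted kidneys were taken on day 15 after transplantation. A transplanted kidney holds cells of both animals, because recipient leukocytes enter a donor organ, and donor and recipient cells were not told apart here.

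MHC class II molecules carry peptides from the endosomal pathway to the cell surface, where CD4+ T cells read them. The alpha and beta chains pair in the endoplasmic reticulum with the invariant chain CD74, which guides them to endosomes, and H2-DM then exchanges the last fragment of CD74 for a peptide. Transcription of the whole group depends on CIITA, a coactivator that binds no DNA itself and is recruited by RFX, CREB, and NF-Y factors at a conserved promoter module. CIITA is made constitutively in B cells and dendritic cells and can be induced by interferon-gamma in epithelial and endothelial cells, which otherwise carry little class II. In a transplanted organ, donor class II is itself a target of recipient T cells. B6 mice have a defective Ea gene and therefore no I-E at the cell surface, although H2-Eb1 is transcribed.

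In the GRCm38 annotation, 6 of the 8 genes lay within 197134 bases of chr17:34119541-34316674, in the order H2-DMa, H2-DMb2, H2-DMb1, H2-Ab1, H2-Aa, and H2-Eb1. Ciita lay on another chromosome, at chr16:10480059-10528418 on the plus strand, with 19 exons in its longest transcript. The promoter sequences of 4 members are shown because a pair of short motifs, 27 or 28 bases apart, was a feature that they had in common. The windows were taken from RefSeq (GRCm38.p6) from 250 bases before to 50 bases after a gene's start. The motifs are CTNNNAAC, in the X box to which RFX factors bind, and ATTGG, the core of the Y box to which NF-Y binds, on either strand and with no overlap, and they were chosen after the promoters had been read. In the sequences below, the capitals mark the 2 motifs and 10 bases are kept on either side.
H2-Aa, chr17:34287857-34287917, minus strand: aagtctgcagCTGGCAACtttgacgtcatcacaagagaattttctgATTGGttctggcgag
H2-Eb1, chr17:34305763-34305822, plus strand: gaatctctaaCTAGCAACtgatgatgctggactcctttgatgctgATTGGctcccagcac
H2-DMb1, chr17:34153084-34153144, plus strand: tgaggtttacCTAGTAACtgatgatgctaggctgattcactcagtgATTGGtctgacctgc
H2-DMb2, chr17:34145113-34145173, plus strand: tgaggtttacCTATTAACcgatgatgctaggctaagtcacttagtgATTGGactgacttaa

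CTNNNAAC alone occurred in 41.1% of all 32851 promoter windows and ATTGG alone in 37.4%, whereas both, in this order and with 25 to 28 bases between them, occurred in 69 windows (0.21%). The lower end of this range was set by H2-Ob, a class II gene outside the 8, whose window held the pair with 25 bases between. Neither window of H2-DMa held the pair in these letters. The windows of H2-Oa and H2-Eb2, which are also class II genes outside the 8, did not hold it either. Windows were not given for H2-Ab1, Cd74, and Ciita. A match is a description of letters in a window and no measurement of binding.

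The libraries held between 34874702 and 96803926 unique molecular identifiers (UMIs, counts of single RNA molecules) in 8532 to 13378 barcodes, and 45667 cells were kept after called doublets were left out. The naive pair had medians of 3586 and 3460 UMIs per cell, the rejecting pair 2533 and 3562, and the tolerized pair 6147 and 7316. The naive pair had 111 barcodes in common, pairs of transplanted kidneys 18 to 35, and a naive with a transplanted kidney 0 to 4. Whether barcode sets differed between naive and transplanted libraries was not tested, and any such difference would enter every comparison with naive kidneys. Naive and transplanted libraries differed in strain, age, transplantation, gene list, and the Cell Ranger version named by the matrices, and these cannot be told apart in any comparison with naive kidneys. With 2 kidneys per group, p values measure only the spread between these kidneys. The paper divides the kidneys over 2 experiments, which the labels do not name, and the main fits had no term for experiment. Cells were grouped into classes by marker genes that include none of the members, and named "-like" where at least 3 markers defined a cluster. Levels are in CPM (the UMIs of a gene per 1000000 UMIs), summed over all cells of a class in a kidney. Over all 6 kidneys, proximal tubule-like cells held 15199 to 17518 CPM of their own markers and endothelium-like cells 7941 to 12927 CPM. The same markers had named the classes, so these levels are a description and no check of the names. Intervals given elsewhere cover counting error only.

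In proximal tubule-like cells, which held between 1059 and 4828 cells per kidney, class II RNA was nearly absent from naive kidneys and abundant in every transplanted kidney. Cd74 stood at 18.2 and 30.1 CPM in naive, 4860 and 5380 CPM in rejecting, and 5573 and 4011 CPM in tolerized kidneys. H2-Ab1, the I-A beta chain, stood at 9.20 and 17.6, 2180 and 2404, and 2184 and 1688 CPM in the same order. The naive kidneys were far below all 4 transplanted kidneys, and rejecting and tolerized kidneys overlapped for both genes. Ciita, a regulator with low RNA levels, stood at 0.34 and 0.39 CPM in naive, 106 and 92.2 CPM in rejecting, and 67.6 and 54.2 CPM in tolerized kidneys. For this gene, both tolerized kidneys were below both rejecting kidneys, as they were for 35.7% of all genes tested. The I-A alpha chain H2-Aa ran from 1016 to 1671 CPM, H2-Eb1 from 840 to 1365 CPM, H2-DMa from 148.7 to 229.7 CPM, H2-DMb1 from 77.3 to 172.9 CPM, and H2-DMb2 from 145.9 to 200.6 CPM over the 4 transplanted kidneys, against at most 9.56 CPM for any of these in a naive kidney.

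The edgeR quasi-likelihood test over all genes, at a false discovery rate (FDR) of 0.05, called all 8 members higher in proximal tubule-like cells of rejecting than of naive kidneys, where 22.8% of all genes tested in this class were called higher. Log2 fold changes were 7.30 ± 0.34 (SE) for Cd74 (FDR 6.24e-06), 6.99 ± 0.35 for H2-Ab1 (FDR 8.5e-06), and 7.65 ± 0.25 for Ciita (FDR 2.36e-06), or 158-fold, 128-fold, and 200-fold. In tolerized against naive kidneys all 8 were higher again, against 17% of all genes, with 7.38 ± 0.34 for Cd74 (FDR 6.44e-06), 6.93 ± 0.35 for H2-Ab1 (FDR 9.17e-06), and 7.12 ± 0.24 for Ciita (FDR 2.67e-06). The lowest change was that of H2-DMb1, a beta chain of H2-DM, which was 12.6-fold higher in rejecting and 14.8-fold higher in tolerized kidneys, and the highest was that of the other beta chain, H2-DMb2, at 281-fold and 282-fold. The median over the members was 7.42 in rejecting and 7.21 in tolerized kidneys, beside 0.07 and 0.06 over all genes tested. Naive and transplanted proximal tubule-like cells fell mostly into different clusters. Naive cells made up clusters 0, 2, 3, and 7, and transplanted cells clusters 23, 24, 32, 33, 34, and 43. Cluster 32 held 1573 of the 2781 cells of the first rejecting kidney, and 37, 19, and 12 cells of the other transplanted kidneys. Its median was 1416 UMIs per cell. In the first rejecting kidney its macrophage markers were at 558.5 CPM and its Cd74 at 4370 CPM. In cluster 1, which both kinds of kidney entered, Cd74 was at 32 and 11.8 CPM in 68 and 96 naive cells and at 4460 and 4380 CPM in 35 and 79 cells of the first rejecting and the first tolerized kidney.

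**Figure D1:**
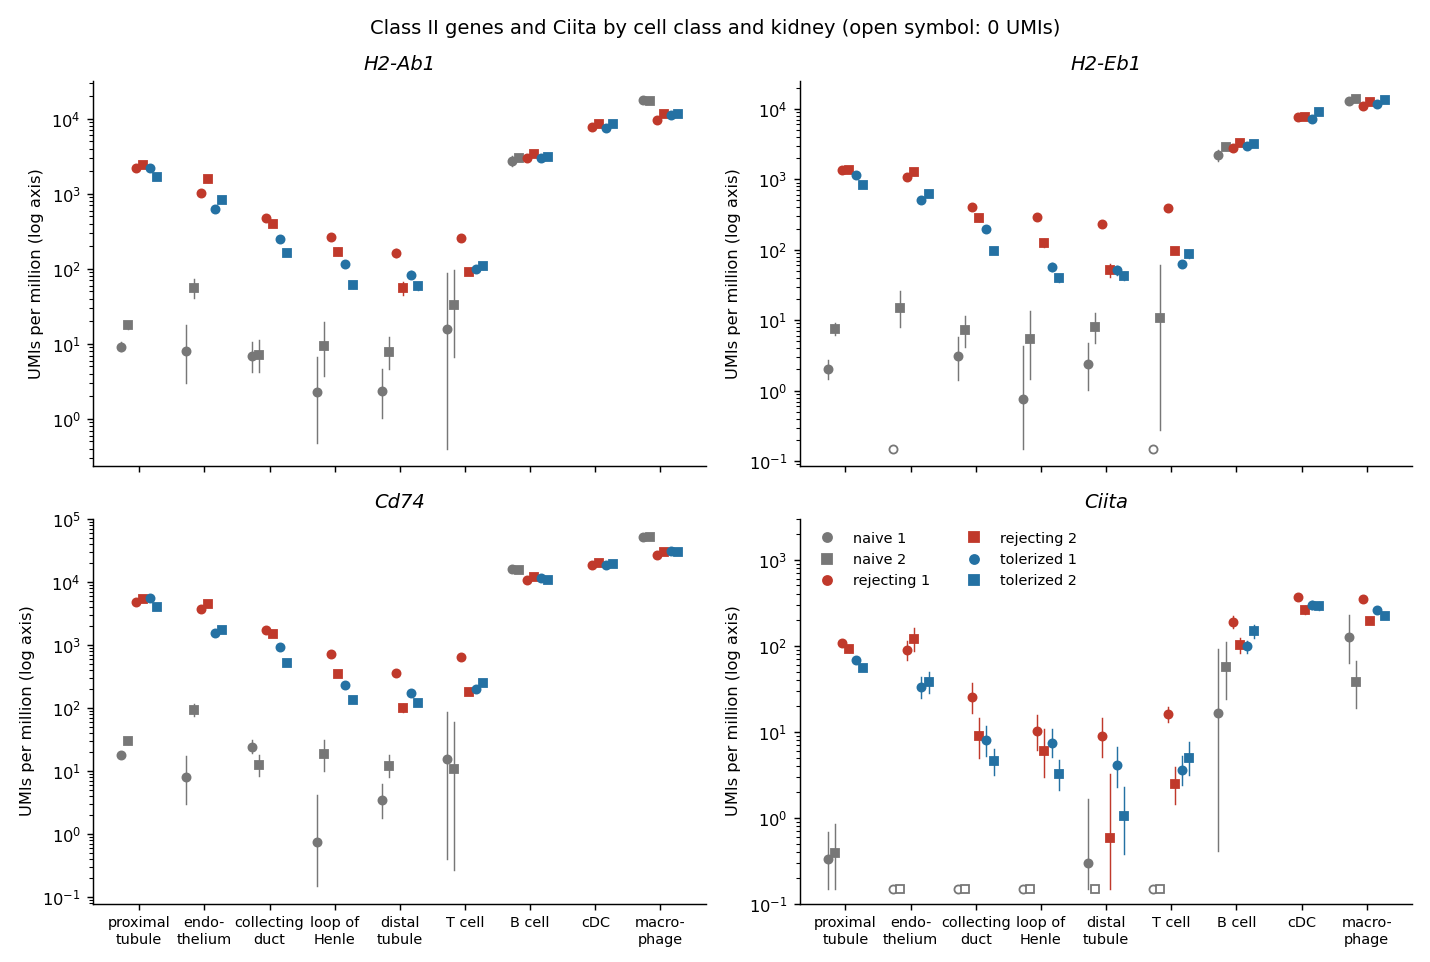
Levels of class II genes and Ciita in CPM (log axis) for each cell class and kidney, with 1 symbol per kidney and open symbols for 0 UMIs. In tubular and endothelial classes the naive kidneys lie far below the transplanted ones, with Cd74 in proximal tubule-like cells at 18.2 and 30.1 CPM against 4011 to 5573 CPM, whereas in B cell-like and macrophage-like cells all 6 kidneys lie at or above 10867 CPM of Cd74.

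The share of cells with class II RNA was compared after each cell was thinned to 1000 UMIs, since depth differed between kidneys. A Cd74 UMI was found in 1.33% and 2.66% of naive proximal tubule-like cells, in 96.2% and 95.7% of rejecting ones, and in 96.5% and 90.2% of tolerized ones. Nearly every proximal tubule-like cell of a transplanted kidney thus held a Cd74 molecule at this depth, and 70.2% to 88.2% of them held UMIs of 3 or more of the 8 genes, against 0.166% and 0.079% in naive kidneys. Cells below 1000 UMIs were left out, which removed 438 and 91 cells from the rejecting and 79 and 17 from the tolerized kidneys. Without thinning the Cd74 shares were 3.27% and 6.64%, 97.5% and 97.6%, and 99.1% and 98.1%. T cell-like cells, which make little class II in the mouse, served as the measure of free RNA in the droplets. Their Cd74 shares at 1000 UMIs were 45% and 14.9% for the rejecting and 18% and 25.1% for the tolerized pair, so that the first rejecting kidney had the most. Median depths before thinning were 2282 to 4848 UMIs in these T cell-like cells and 4068 to 11718 UMIs in the proximal tubule-like cells.

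**Figure D2:**
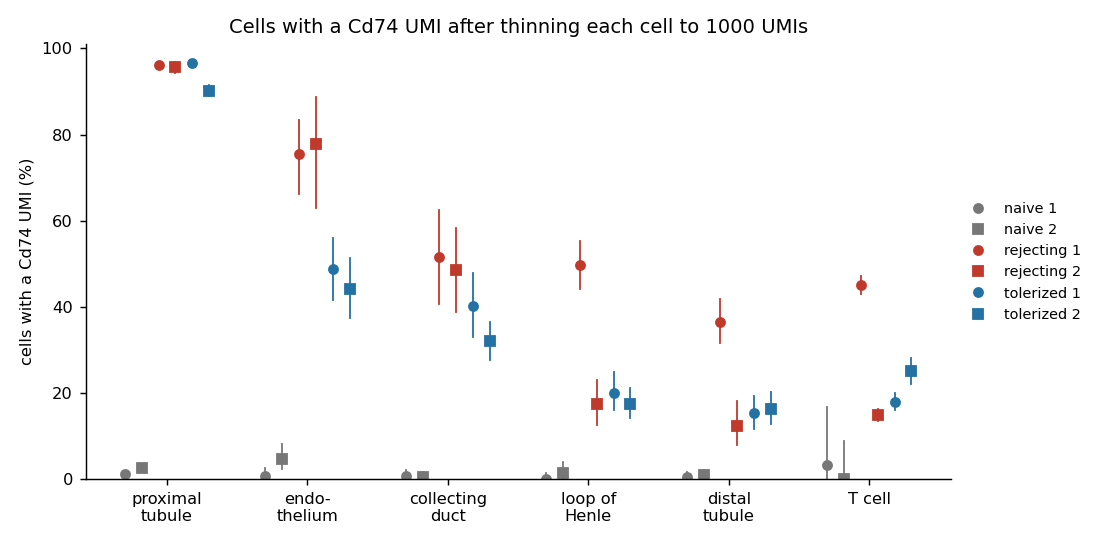
Percentage of cells with at least 1 Cd74 UMI after each cell was thinned to 1000 UMIs, by class and kidney, with exact binomial 95% intervals as bars. Proximal tubule-like cells of the 4 transplanted kidneys lie between 90.2% and 96.5%, while distal convoluted tubule-like cells and loop of Henle-like cells lie near the T cell-like cells of the same kidney.

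RNA of leukocytes moved with the groups and is given for the whole marker lists. The 9 macrophage markers, which include C1qa, C1qb, and Csf1r, summed to 10.2 and 18.6 CPM in naive proximal tubule-like cells, 273.4 and 68.3 CPM in rejecting, and 50.8 and 18.6 CPM in tolerized kidneys, with none of the 9 at 0. The first rejecting kidney was the highest and the second tolerized kidney was at the naive level, although its Cd74 was 4011 CPM. As a share of the level in the pooled leukocytes of the same kidney, the 8 members together were at 28.9% to 32.3% in proximal tubule-like cells of transplanted kidneys, whereas the macrophage markers were at 0.327% to 2.57% and the pan-leukocyte markers at 0.292% to 3.73%. The first quotient exceeded that of the macrophage list 12.6 to 88.4 times. When only cells without a UMI of any of 59 leukocyte markers were kept, Cd74 in proximal tubule-like cells was at 15.8 and 27.9 CPM in naive, 4808 and 5104 CPM in rejecting, and 5412 and 3460 CPM in tolerized kidneys. The cells that remained were 1.37% and 18.4% of those of the rejecting kidneys and 16% and 19.5% of those of the tolerized kidneys.

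**Figure D3:**
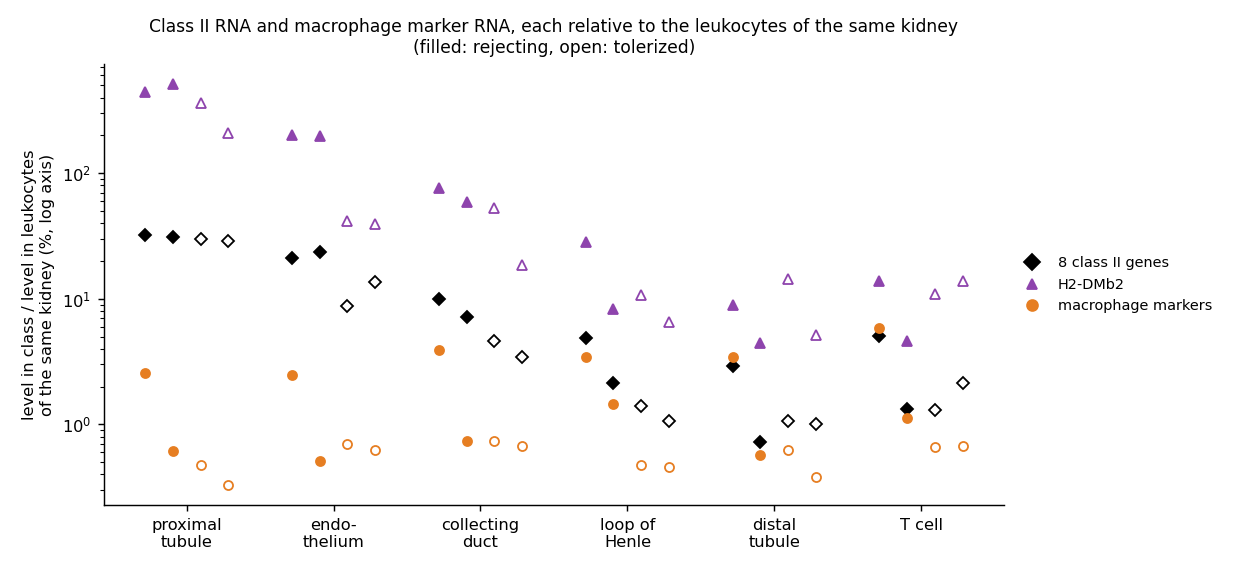
Summed level of the 8 members and of the macrophage markers, and the level of H2-DMb2 alone, in each class. Levels are a percentage of the level in pooled leukocytes of the same kidney (log axis), with filled symbols for rejecting and open symbols for tolerized kidneys. H2-DMb2 alone lies at 208% to 515% in proximal tubule-like cells. In proximal tubule-like cells the members lie at 28.9% to 32.3% and the macrophage markers at 0.327% to 2.57%, and in distal convoluted tubule-like cells the 2 quotients lie close together.

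Endothelium-like cells, 47 to 268 per kidney, also gained class II RNA, with a larger gap between rejecting and tolerized kidneys. Cd74 was at 8.09 and 93.2 CPM in naive, 3705 and 4484 CPM in rejecting, and 1580 and 1709 CPM in tolerized kidneys. Ciita was not detected in either naive kidney, stood at 88.9 and 119.2 CPM in rejecting kidneys, and stood at 33.1 and 37.7 CPM in tolerized kidneys. H2-Ab1 was at 8.09 and 55.2, 1031 and 1586, and 633.4 and 825.6 CPM. For all 3 genes the order was naive, tolerized, rejecting, without overlap between the groups. Of all genes tested in this class, 16.9% were lower in both tolerized than in both rejecting kidneys. All 8 members were called higher than in naive kidneys, both in rejecting kidneys (8.34% of all genes called higher) and in tolerized kidneys (6.83%). Log2 fold changes over naive in rejecting kidneys were 6.25 ± 0.71 for Cd74 (FDR 0.000483) and 5.27 ± 0.60 for H2-Ab1 (FDR 0.000459), and in tolerized kidneys 4.95 ± 0.68 (FDR 0.00145) and 4.45 ± 0.58 (FDR 0.00112). Against the 3 UMIs that a count of 0 allows over both naive kidneys, Ciita was at least 52.9-fold higher in rejecting kidneys (FDR 0.00012) and at least 18.9-fold higher in tolerized kidneys (FDR 0.000547). Macrophage markers in these cells were at 44.5 and 62.2 CPM in naive, 264 and 56.8 CPM in rejecting, and 75 and 35.6 CPM in tolerized kidneys, and the kidney with the highest Cd74 was the second rejecting one. The 9 B cell markers were at 523 and 467.3 CPM in naive, 254.7 and 224.2 CPM in rejecting, and 297.7 and 355.5 CPM in tolerized kidneys, with 2 to 8 of the 9 at 0 in transplanted kidneys. The 11 cDC markers were at 84.9 and 63.3 CPM, 92.9 and 99.3 CPM, and 158.8 and 86.8 CPM, with 6 or 7 of the 11 at 0 in transplanted kidneys. As a share of the level in pooled leukocytes of the same kidney, the B cell list was at 65.7% to 93%, the cDC list at 37.9% to 65.9%, the macrophage list at 0.507% to 2.48%, and the 8 members at 8.81% to 23.4%. The pan-leukocyte list ran from 1002 to 1779 CPM in transplanted kidneys and was at 997.5 and 1249 CPM in naive ones. The part of B cell or cDC RNA in these members' levels was not tested.

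Collecting duct-like cells (93 to 472 per kidney) held intermediate levels. The class pooled clusters 5 and 21, with Aqp2 among their leading genes, and cluster 26, led by Atp6v1g3 and Slc26a4. Cluster 26 held 47 of 93 and 37 of 112 cells of the rejecting pair, and 43 of 186 and 71 of 444 of the tolerized pair. In the first rejecting kidney, macrophage markers were at 801.7 CPM in cluster 26 and 104.3 CPM in cluster 21. The part of this mix in the levels of the class was not tested. Cd74 was at 24.6 and 12.6 CPM in naive, 1751 and 1495 CPM in rejecting, and 933.5 and 525.2 CPM in tolerized kidneys. H2-Ab1 was at 6.85 and 7.15, 478.5 and 401.8, and 252.3 and 165.3 CPM. Ciita had no UMI in either naive kidney and was at 25.3 and 8.86 CPM in rejecting and 7.97 and 4.54 CPM in tolerized kidneys. Both tolerized kidneys were below both rejecting kidneys for each of these 3 genes, as they were for 23.8% of all genes tested. All 8 members rose over naive kidneys in both comparisons, beside 11.1% of all genes for rejecting and 9.24% for tolerized kidneys, with Cd74 at 6.34 ± 0.38 (FDR 9.55e-07) and 5.26 ± 0.36 (FDR 2.86e-06), H2-Ab1 at 5.89 ± 0.28 (FDR 4.01e-07) and 4.89 ± 0.28 (FDR 7.71e-07), and Ciita at least 26.6-fold (FDR 0.000998) and at least 9.91-fold (FDR 0.00476) higher. Macrophage markers were at 417.1 and 82.7 CPM in rejecting and 79.4 and 38.1 CPM in tolerized kidneys, and the members' quotient to leukocytes exceeded that of the macrophage list 2.54 to 9.72 times. Leukocyte markers do not follow free RNA of proximal tubule-like cells, whose part was not tested. T cell-like cells, the measure of free RNA, held 637.8 and 177.6 CPM of Cd74 in rejecting and 200.2 and 254.2 CPM in tolerized kidneys.

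Cells like those of the loop of Henle and of the distal convoluted tubule had the lowest levels of the tubule. In loop of Henle-like cells Cd74 was at 0.76 and 18.7 CPM in naive, 719.7 and 351.5 CPM in rejecting, and 235 and 136.2 CPM in tolerized kidneys. In distal convoluted tubule-like cells it was at 3.56 and 12.3, 358.3 and 101.2, and 173 and 121 CPM. These levels were of the order of those in T cell-like cells of the same kidneys, 637.8 and 177.6 CPM in rejecting and 200.2 and 254.2 CPM in tolerized kidneys. The Cd74 shares at 1000 UMIs were 49.7%, 17.4%, 20.1%, and 17.5% in loop of Henle-like cells, in the order of both rejecting and then both tolerized kidneys, and distal convoluted tubule-like cells had 36.6%, 12.5%, 15.3%, and 16.3%. None of these shares lay above the T cell-like share of its kidney by more than the 95% counting intervals. Whether they exceed free RNA in the droplets was thus not detectable from the shares. The shares cannot decide it, because a given amount of free RNA is a smaller part of a deeper cell and thinning keeps that part. Median depths before thinning were 16730 and 2067 UMIs in clusters 11 and 44 of loop of Henle-like cells. In clusters 29 and 37 of distal convoluted tubule-like cells they were 13765 and 1743 UMIs. Among cells without a leukocyte marker UMI, Cd74 in loop of Henle-like cells was at 1.01 and 5.32 CPM in naive, 217.7 CPM in the second rejecting, and 314.8 and 132.1 CPM in the tolerized kidneys, and in distal convoluted tubule-like cells at 2.23 and 11.1, 106, and 118.9 and 119.7 CPM. The macrophage markers were at 363.6 and 160.9 CPM in rejecting and 50.7 and 26.2 CPM in tolerized loop of Henle-like cells, and distal convoluted tubule-like cells had 367.2, 63.4, 66.3, and 21.7 CPM. The members' quotient to leukocytes was 1.41 to 2.94 times that of the macrophage list in the first class and 0.846 to 2.63 times in the second.

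Against naive kidneys, 7 of the 7 members tested in loop of Henle-like cells were higher in rejecting kidneys and 6 of 7 in tolerized kidneys, beside 9.41% and 5.97% of all genes. H2-DMb2 was too low to be tested there. As in proximal tubule, naive and transplanted cells lay mostly in different clusters, 6 against 11 and 44 in loop of Henle-like, 4 against 29 and 37 in distal convoluted tubule-like, and 5 against 21 in collecting duct-like cells, where both kinds entered cluster 26. Endothelium-like cells of transplanted kidneys lay mostly in cluster 12, which also held 104 and 89 naive cells, and cluster 9 was nearly all naive. In loop of Henle-like cells of rejecting and then tolerized kidneys, Cd74 differed from naive by 6.00 ± 0.66 (FDR 4.85e-05) and 4.47 ± 0.66 (FDR 0.00066) on the log2 scale. H2-Ab1 differed there by 5.34 ± 0.51 (FDR 1.68e-05) and 4.04 ± 0.53 (FDR 0.00026), and Ciita was at least 5.57-fold (FDR 0.0144) and at least 3.17-fold (FDR 0.0407) higher. H2-DMb1 did not pass in tolerized loop of Henle-like cells (0.49 ± 0.72, FDR 0.721). In distal convoluted tubule-like cells, 6 of 8 members passed in rejecting and 7 of 8 in tolerized kidneys, beside 12.6% and 8.97% of all genes, with Cd74 at 4.77 ± 0.62 (FDR 0.000382) and 4.15 ± 0.61 (FDR 0.00113) and H2-Ab1 at 4.33 ± 0.56 (FDR 0.000396) and 3.73 ± 0.56 (FDR 0.00126). Ciita, with 1 naive UMI, passed in neither, at a ratio of 27.2 (95% interval 4.27 to 1138, FDR 0.0599) in rejecting and 12.5 (2.01 to 516, FDR 0.174) in tolerized kidneys, and H2-DMb2 did not pass in rejecting kidneys (1.59 ± 0.83, FDR 0.193). Over the 5 tubular and endothelial classes, 37 of 39 pairs of member and class were higher in rejecting than in naive kidneys and 37 of 39 in tolerized than in naive kidneys, beside 13.5% and 10.1% of all tests. The naive kidneys are the same in both comparisons.

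The comparison of tolerized with rejecting kidneys asks whether the infusion of ECDI-treated donor cells went with another level of class II RNA in the graft or in the leukocytes within it. No member passed the FDR in proximal tubule-like cells with edgeR or DESeq2, and edgeR called 0% of the 12683 genes tested there. At an unadjusted p under 0.05, edgeR gave 1 of the 8, beside 11.1% of all genes. Cd74 differed by 0.08 ± 0.25 (FDR 0.95) and H2-Ab1 by -0.06 ± 0.27 (FDR 0.96), whereas Ciita differed by -0.52 ± 0.16 (FDR 0.266, unadjusted p = 0.00974 in edgeR). The rejecting pair had 21.8 and 17.1 Ciita UMIs per 1000 Cd74 UMIs and the tolerized pair 12.1 and 13.5, so that the groups did not overlap. How often such ratios of other genes do not overlap was not measured. Cluster 33, with Ciita at 21.1 to 51.5 CPM, held 335 of 2781 and 428 of 1059 cells of the rejecting pair. In the tolerized pair it held 1600 of 3416 and 500 of 2239 cells. The part of the mix of clusters in this ratio was not tested. The members' median was -0.14, and 4 of the 8 were lower in both tolerized kidneys than in both rejecting kidneys in CPM, beside 35.7% of all genes.

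In the other tubular classes and in endothelium-like cells most fitted differences were below 0, and 1 passed the FDR. H2-Eb1 in loop of Henle-like cells was at 287.7 and 123.7 CPM in rejecting and 56.4 and 39.5 CPM in tolerized kidneys, a difference of -2.10 ± 0.36 (FDR 0.024). It was the only one of 39 pairs of member and class past the threshold, beside 0.127% of all tests in these classes and 0.557% of those in loop of Henle-like cells, and DESeq2 did not call it (-2.11, adjusted p = 0.465). Macrophage markers in this class ran from 363.6 CPM in the first rejecting to 26.2 CPM in the second tolerized kidney. Among cells without a leukocyte marker UMI, which leaves out the first rejecting kidney in this class for want of cells, the H2-Eb1 difference was -0.42 (FDR 0.883), and 0 of 20 pairs of member and class passed in the classes that could still be fitted. With Ace, a monocyte marker that proximal tubule also transcribes, taken off the markers once the data had been looked at, the difference was -0.30 and again 0 of 20 pairs passed. With 1 kidney left in a group, as here and in the fits that follow, the spread comes from the other groups. Without the second tolerized kidney the difference was -1.90 (FDR 0.192), and 0 of 40 pairs passed. Without the second rejecting kidney 13 of 40 pairs passed, all lower in tolerized kidneys, and without the first rejecting kidney 1 of 39 passed, which was again H2-Eb1 in loop of Henle-like cells (-1.33, FDR 0.0354). Without the first tolerized kidney 2 of 39 passed, H2-Ab1 and H2-Eb1 in loop of Henle-like cells.

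The remaining differences between tolerized and rejecting kidneys in these classes did not pass in edgeR, which called 0.107% of all genes in distal convoluted tubule-like, 0.00913% in collecting duct-like, and 0% in endothelium-like cells. In loop of Henle-like cells, Cd74 differed by -1.53 ± 0.44 (FDR 0.231), H2-Ab1 by -1.31 ± 0.32 (FDR 0.121), and Ciita by -0.67 ± 0.51 (FDR 0.858). Collecting duct-like cells gave -1.09 ± 0.29 (FDR 0.251), -1.0 ± 0.21 (FDR 0.117), and -1.33 ± 0.50 (FDR 0.507) for the same genes, with the lowest p for H2-Aa at -1.33 ± 0.22 (FDR 0.0903). Endothelium-like cells gave -1.30 ± 0.56 (FDR 0.744), -0.81 ± 0.47 (FDR 0.89), and -1.51 ± 0.30 (FDR 0.243), with Ciita at the lowest p. In distal convoluted tubule-like cells the values were -0.62 ± 0.46 (FDR 0.805), -0.60 ± 0.40 (FDR 0.769), and -1.0 ± 0.87 (FDR 0.848), with the lowest p for H2-Eb1 at -1.54 ± 0.50 (FDR 0.326). The members' medians were -1.53, -1.13, -1.04, and -0.81 in loop of Henle-like, collecting duct-like, endothelium-like, and distal convoluted tubule-like cells, beside medians of 0.00 to 0.01 over all genes. Members at an unadjusted p under 0.05 numbered 6 of 7, 7 of 8, 7 of 8, and 3 of 8, beside 7.31%, 8.04%, 6.43%, and 8.36% of all genes. Members lower in both tolerized than in both rejecting kidneys numbered 6, 6, 7, and 1, beside 18.3%, 23.8%, 16.9%, and 19.3% of all genes. The members' levels went together over classes and kidneys, so these counts do not rest on independent genes. The median over all 39 pairs of tubular and endothelial classes was -1.02. Leaving out the first rejecting kidney gave -0.50, and leaving out the second gave -1.13. Without a tolerized kidney it was -1.12 (first) or -0.87 (second). Among cells without a leukocyte marker UMI it was -0.25 over 20 pairs, none of them in collecting duct-like or endothelium-like cells. In endothelium-like cells the mean Cd74 share at 1000 UMIs was 46.5% in tolerized and 76.7% in rejecting kidneys, and in collecting duct-like cells 36.1% and 50.2%, with an exact two-sided permutation p = 0.33 in each, the smallest that 2 against 2 kidneys can give.

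**Figure D4:**
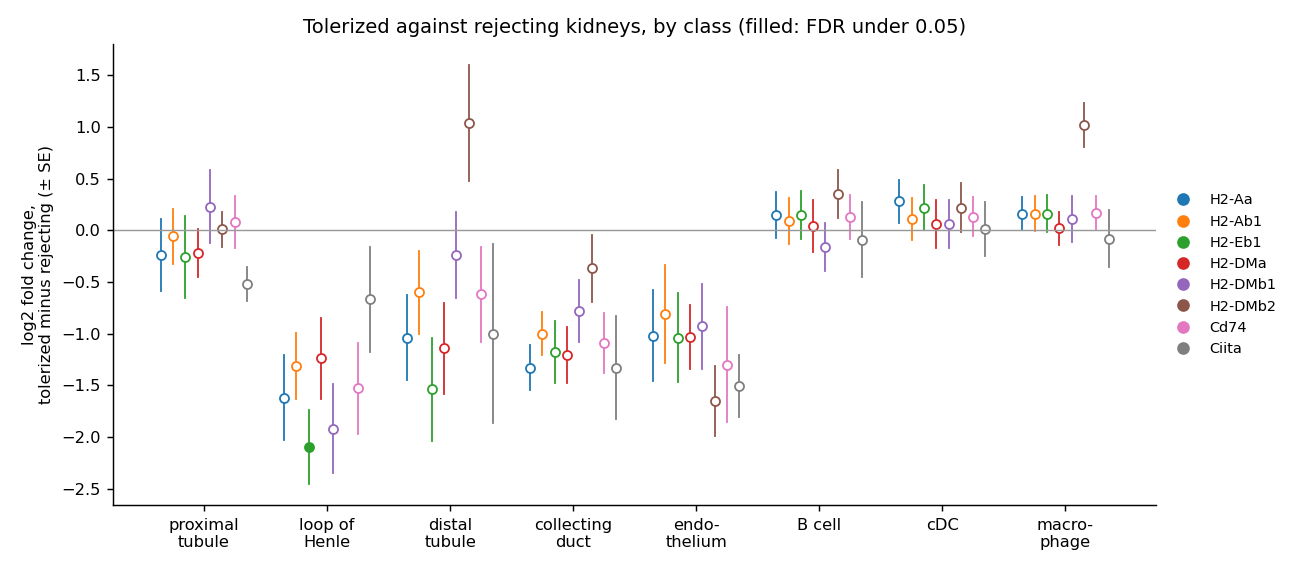
Log2 fold change of the members in tolerized against rejecting kidneys by class, with 1 symbol per member, SE as bars, and filled symbols where the FDR was under 0.05. Members of B cell-like and cDC-like cells lie near 0, those of loop of Henle-like, collecting duct-like, and endothelium-like cells lie below 0, and the 1 filled symbol is H2-Eb1 in loop of Henle-like cells.

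In professional antigen-presenting cells class II RNA was high in every transplanted kidney, and no difference between tolerized and rejecting kidneys passed. Macrophage-like cells held the most Cd74 of any class, at 26866 and 30522 CPM in rejecting and 31027 and 30094 CPM in tolerized kidneys. cDC-like cells, a class of conventional dendritic cells, held 18607 and 19760 CPM in rejecting and 18832 and 19449 CPM in tolerized kidneys. B cell-like cells held 10867 and 12009 CPM in rejecting and 11678 and 10984 CPM in tolerized kidneys. The tolerized values lay within or next to the range of the rejecting ones in each class, and none of the 24 pairs of member and class passed the FDR, beside 0.0918% of all tests, with edgeR or with DESeq2. At an unadjusted p under 0.05, edgeR gave 1 of the 24 beside 5.85% of all tests, H2-DMb2 in macrophage-like cells, which was at 22 and 22.1 CPM in rejecting and 37.2 and 47.9 CPM in tolerized kidneys (1.02 ± 0.21, FDR 0.662). Cd74 differed by 0.17 ± 0.16 (FDR 0.946) in macrophage-like, 0.13 ± 0.19 (FDR 0.985) in cDC-like, and 0.13 ± 0.21 (FDR 0.966) in B cell-like cells. H2-Ab1 differed by 0.16 ± 0.17 (FDR 0.951), 0.11 ± 0.20 (FDR 0.986), and 0.09 ± 0.22 (FDR 0.974), and Ciita by -0.08 ± 0.28 (FDR 0.99), 0.01 ± 0.26 (FDR 0.995), and -0.09 ± 0.36 (FDR 0.984). The lowest p was that of H2-Aa in cDC-like cells (0.28 ± 0.21, FDR 0.984) and of H2-DMb2 in B cell-like cells (0.35 ± 0.23, FDR 0.903).

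Naive macrophage-like cells, 36 and 97 in number, held 52373 and 51078 CPM of Cd74, above every transplanted kidney, and 125.2 and 37.3 CPM of Ciita, below every transplanted kidney (191.7 to 343.8 CPM). A fit of all 6 kidneys called Cd74 lower (-0.78 ± 0.19, FDR 0.0218) and Ciita higher (2.13 ± 0.45, FDR 0.0108) in rejecting than in naive macrophage-like cells, beside 13.8% of all genes in either direction. In tolerized against naive kidneys it called Ciita (2.04 ± 0.45, FDR 0.0197) and not Cd74 (-0.62 ± 0.19, FDR 0.0718), beside 8.48% of all genes. The regulator and its target thus differed from naive kidneys in opposite directions in the first comparison, with 22 naive UMIs behind Ciita. Naive macrophage-like cells lay mostly in cluster 8 and those of transplanted kidneys in clusters 16 and 38. In B cell-like cells, all in cluster 25, the same fit called 1 member, H2-DMb2, which was at 877.8 and 772.5 CPM in naive and 347.3 and 328.1 CPM in rejecting kidneys (-1.27 ± 0.31, FDR 0.0106), beside 9.92% of all genes. In tolerized B cell-like cells it was at 404.2 and 376 CPM (-0.93 ± 0.30, FDR 0.0878), and no member passed in tolerized against naive B cell-like cells, beside 4.3% of all genes.

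Over the transplanted kidneys the order of mean Cd74 levels was macrophage-like (29627 ± 1880 CPM, SD, n = 4), cDC-like (19162 ± 535), B cell-like (11385 ± 549), monocyte-like (9554 ± 846), and plasmacytoid dendritic cell-like cells (6669 ± 993), followed by neutrophil-like (5166 ± 5436), proximal tubule-like (4956 ± 698), stroma-like (2953 ± 642), endothelium-like (2869 ± 1451), and collecting duct-like cells (1176 ± 552). The first 4 classes did not overlap their next neighbour, and neither did proximal tubule-like with stroma-like cells. Values of neutrophil-like cells, which ran from 603.1 to 12467 CPM, overlapped their neighbours on both sides. For Ciita, cDC-like (301 ± 46.6) and macrophage-like cells (254.1 ± 65.6) came first and overlapped, and proximal tubule-like cells (80.02 ± 23.4) followed monocyte-like and B cell-like cells and came next to endothelium-like cells (69.7 ± 41.5), which they overlapped. Per 1000 Cd74 UMIs, Ciita UMIs were 21 to 26.6 in endothelium-like and 12.1 to 21.8 in proximal tubule-like cells of transplanted kidneys, and 6.28 to 12.8 in macrophage-like cells. Other leukocytes of these kidneys had 13 to 19.7 (cDC-like), 12.4 to 20.2 (monocyte-like), and 8.37 to 17.2 (B cell-like). T cell-like cells, the measure of free RNA, had 13.9 to 25. Within proximal tubule-like cells of transplanted kidneys, cluster 43 had the lowest Cd74, 926.4 to 2199 CPM, with Ciita at 140 to 183.9 CPM, whereas cluster 33 had 3848 to 5678 CPM of Cd74 with Ciita at 21.1 to 51.5 CPM. Cluster 43 also had medians of 2618 UMIs and 4.95% mitochondrial RNA per cell, against 5389 UMIs and 16.9% in cluster 33. Whether cell quality has a part in this contrast was not tested. The highest Cd74 of a tubular kind was in cluster 42, led by the injury marker Havcr1 and left unnamed. It was at 6289 and 6844 CPM in the rejecting kidneys and 8677 CPM in the first tolerized kidney, from 51, 61, and 92 cells. Proximal tubule-like cluster 24 lay close to these levels in both rejecting kidneys, at 6217 and 6767 CPM. Only in the first tolerized kidney was cluster 24 clearly lower, at 6062 CPM. Whether injury has a part in the level of cluster 42 was not tested.

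H2-DMb1 and H2-DMb2 encode alternative beta chains of H2-DM, and their balance differed between classes. H2-DMb2 made up 88.5% and 86% of the UMIs of both genes in naive B cell-like cells, 76.4% in both rejecting kidneys, and 81.2% and 83.4% in tolerized kidneys. In macrophage-like cells the share was 0% to 4.81% over all 6 kidneys, and in cDC-like cells of transplanted kidneys it was 22.5% to 30.2%. Naive proximal tubule-like cells had 6.5% and 6%, rejecting ones 68% and 53.7%, and tolerized ones 57.6% and 53.6%. The share in transplanted proximal tubule-like cells thus lay between those of cDC-like and B cell-like cells and far above that of macrophage-like cells, and naive values rested on low counts. Collecting duct-like cells had 3.03% and 2.86% in naive kidneys. Their shares after transplantation, with the rejecting pair listed first, were 45.3%, 27.3%, 42%, and 38.7%. T cell-like cells, the measure of free RNA, had 17.5%, 21.3%, 40.8%, and 50.6%. Only for the first rejecting kidney did the collecting duct-like share exceed the T cell-like share beyond the 95% intervals. The part of free RNA in the collecting duct-like shares was not tested. All of these H2-DMb2 shares are uncertain in size because the genes resemble each other. Of all 50-base stretches of its longest transcript, H2-DMb1 had 27.2% in common with H2-DMb2. Within the last 500 bases, where most reads of such libraries fall, it had 25.2%. For H2-DMb2 the figures were 25.2% and 2.6%. How BALB/c alleles affect counting against the B6 reference was not tested. H2-Eb1 made up 33.2% to 38% of the UMIs of H2-Ab1 and H2-Eb1 in transplanted proximal tubule-like cells and 50.4% to 53.5% in transplanted macrophage-like cells, without overlap.

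**Figure D5:**
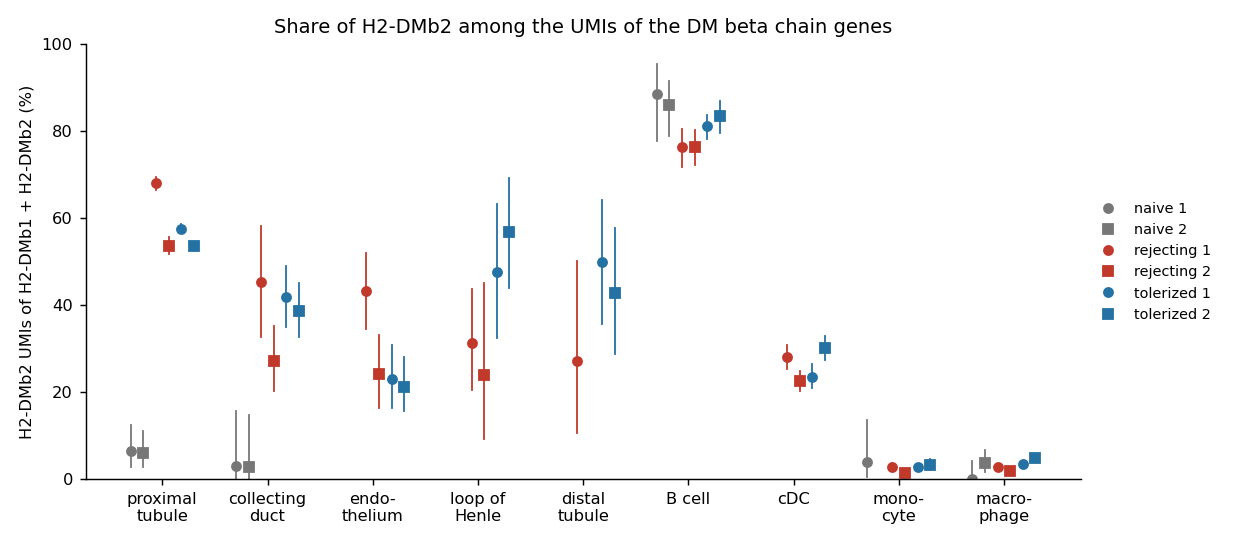
Percentage of H2-DMb2 among the UMIs of H2-DMb1 and H2-DMb2 by class and kidney, with exact binomial 95% intervals as bars. B cell-like cells lie at 76.4% to 88.5% and macrophage-like cells at 0% to 4.81%, and proximal tubule-like cells lie at 6% and 6.5% in naive and at 53.6% to 68% in transplanted kidneys.

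Of 30 other gene symbols of the pathway, 25 were in the matrices. The list held older and newer names of the same gene, such as March1 and Marchf1, so the absent symbols are not all absent genes. In proximal tubule-like cells 13 of 25 tested were higher and 0 lower in rejecting than in naive kidneys, and 10 of 25 were higher and 0 lower in tolerized kidneys, beside 22.8% and 17% of all genes called higher. Interferon-gamma signalling accounted for 7 of 8 and 5 of 8 genes, with Irf1, which acts on the inducible Ciita promoter, at 5.69 ± 0.33 (FDR 1.69e-05) and 4.94 ± 0.32 (FDR 3.13e-05). All 3 other class II genes tested, H2-Oa, H2-Ob, and H2-Eb2, were higher in rejecting and 2 of them, H2-Ob and H2-Eb2, in tolerized kidneys. H2-Oa was also among the 10 leading genes of the cDC-like cluster 14. The quotient to leukocytes was taken for the 8 members only, so the part of leukocyte RNA in the levels of pathway genes was not tested. H2-Oa and H2-Ob encode H2-DO, which restrains H2-DM. Of the 7 promoter factors, 1 was higher in each comparison, Creb1 (0.64 ± 0.19, FDR 0.0266) in rejecting and Rfx5 (0.76 ± 0.21, FDR 0.028) in tolerized kidneys. Ifng itself, a product of T and NK cells, was among the genes called in rejecting proximal tubule-like cells (FDR 0.00651), where the 10 T cell markers summed to 189.5 and 43.8 CPM against 1.2 and 1.31 CPM in naive kidneys. In loop of Henle-like cells 5 of 19 were higher in rejecting and 2 of 19 in tolerized kidneys, beside 9.41% and 5.97% of all genes. Distal convoluted tubule-like cells had 10 and 2 of 21 higher (12.6% and 8.97% of all genes), collecting duct-like cells 6 and 5 of 20 (11.1% and 9.24%), and endothelium-like cells 5 and 4 of 19 (8.34% and 6.83%), with 0 to 2 lower. Irf1 was higher in every tubular and endothelial class of both comparisons. Between tolerized and rejecting kidneys 2 genes of the list passed, both lower in tolerized kidneys. Ctss, the cathepsin that trims CD74, passed in loop of Henle-like cells (-3.08 ± 0.37, FDR 0.00382), 1 of 19 tested beside 0.557% of all genes. Ifng passed in distal convoluted tubule-like cells (FDR 0.0479), 1 of 21 tested beside 0.107% of all genes. T cell markers in that class ran from 10.5 to 258.1 CPM over the transplanted kidneys, and the part of T cell RNA was not tested. Ctss is abundant in macrophages, whose markers moved the same way in loop of Henle-like cells, and their part in this difference was not tested. Between tolerized and rejecting kidneys none passed in the leukocyte classes. Against naive kidneys, the fit of all 6 kidneys called 9 of 24 higher in rejecting and 5 of 24 in tolerized macrophage-like cells, with 0 lower. In B cell-like cells it called 4 of 24 higher and 1 lower in rejecting, and 2 higher and 0 lower in tolerized kidneys. Of all genes, 13.8% and 8.48% were called in either direction in macrophage-like cells, and 9.92% and 4.3% in B cell-like cells.

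The genes whose levels were most like the mean of H2-Aa, H2-Ab1, H2-Eb1, and Cd74, over 81 sums of class and kidney from 16 classes, were Erp29 (Pearson's r = 0.831), Ctsz (0.827), Ly86 (0.813), Pld4 (0.802), and Unc93b1 (0.79), out of 8669 genes. Among the members outside this mean, r was 0.947 for H2-DMa, 0.906 for Ciita, 0.898 for H2-DMb1, and 0.739 for H2-DMb2. The r of 0.995 for Cd74 cannot be compared with these, because Cd74 is itself a part of the mean. Sums of 1 kidney have their library and its free RNA in common, so that these values are descriptions.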

How the data were processed

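Cells of 6 kidneys (2 naive, 2 rejecting, 2 tolerized) were dissociated with a tissue kit, cleared of red cells, barcoded in droplets, and sequenced on 1 library per kidney. The authors aligned reads to mm10 with Cell Ranger, after bcl2fastq, and deposited raw UMI counts per gene and barcode, without normalization. Matrices of transplanted kidneys listed 31053 genes and named version 3.0.1, and those of naive kidneys listed 28692 genes and named none.

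A barcode was kept from 500 UMIs and 250 genes upward if mitochondrial RNA made up no more than 50% of its UMIs. Doublets were the highest Scrublet scores up to 0.8% per 1000 barcodes, because Scrublet's own threshold marked 0 to 280 barcodes per kidney. Cells were clustered with scanpy 1.11.5 on 2500 variable genes, members and pathway genes left out, with 40 components, 20 neighbors, and a Leiden resolution of 1.5 (igraph 0.11.9). Of 46 clusters, 41 were named from at least 3 markers. Counts were summed per class and kidney with at least 20 cells, cleared of low genes by filterByExpr, scaled by TMM, and compared in edgeR 4.0.16 (quasi-likelihood, R 4.3.3) with FDR over all genes of a class. Tubular and endothelial classes were fitted over 6 kidneys and leukocyte classes over the 4 transplanted ones, since naive kidneys held few such cells. The script was tested on simulated data. DESeq2 1.42.0 and the other alternatives were no filter, other size factors, a replicate block, other limits on cells, and leaving out each kidney.

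The members, the 30 pathway symbols, and the alternatives were chosen with earlier results of these data known. Fold changes are given for H2-Ab1, Cd74, and Ciita in each class, and for any other member that passed in tolerized against rejecting kidneys or, failing that, had the lowest p. Other members are named where a count turned on them, which was decided after their values were seen. The 5 most similar genes had to reach 50 CPM in 1 sum, with a pseudocount of 1 on the log2 scale. Intervals are exact binomial at 95%. Coordinates are those of GENCODE M21 and RefSeq.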

Additional observations from a re-analysis of the deposited data

How the results depend on the processing

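Among members in tubular and endothelial classes, tolerized against rejecting, the main test called 1 of 39. DESeq2 called 2 (H2-Aa and H2-Ab1 in collecting duct-like cells), no filter on low counts 18 of 40, doublets kept 0, at most 20% mitochondrial UMIs 0, and no leukocyte marker UMI 0 of 20, also with Ace left out, an alternative added once the data had been looked at. Leaving out 1 kidney gave 0 (without the second tolerized) to 13 (without the second rejecting). Size factors, at least 1000 UMIs, and the 4 transplanted kidneys alone gave 1 each. All calls were lower in tolerized kidneys. The replicate block gave 6, all lower. The paper divides the kidneys over 2 experiments and reports that the groups were processed at the same time. The labels do not say that numbers pair the kidneys or mark these experiments. Correlations of same-numbered deviations ran from -0.201 to 0.121. In the leukocyte classes no filter called 1 of 24 (H2-DMb2 in macrophage-like cells), and every other setting 0, the replicate block and a crossed pairing, added after the data were seen, included. Rejecting against naive gave 33 to 40 calls, 17 of 20 without leukocyte marker UMIs and 18 of 20 with Ace left out, and 34 to 39 without 1 kidney, and the replicate block 38. Tolerized against naive gave 29 to 39, 23 of 26 without leukocyte marker UMIs under either marker list, 28 to 38 without 1 kidney, and the replicate block 38. Without leukocyte marker UMIs, endothelium-like cells could not be fitted, rejecting collecting duct-like cells (1 and 15) were too few, and the rejecting arm of loop of Henle-like and of distal convoluted tubule-like cells was 1 kidney, so that the 20 pairs cover those 2 classes and proximal tubule.

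H2-Eb1 in loop of Henle-like cells was called in 10 of 16 alternatives and lower in all 16. Differences of members between tolerized and rejecting kidneys that changed sign had not passed the FDR. Without leukocyte marker UMIs these were H2-Ab1 in proximal tubule-like (0.02) and distal convoluted tubule-like cells (0.15), and Cd74 in distal convoluted tubule-like (0.22) and loop of Henle-like cells (0.08). With Ace left out the values were 0.13 for H2-Ab1 in distal convoluted tubule-like and, for Cd74, 0.21 in distal convoluted tubule-like and 0.22 in loop of Henle-like cells. At most 20% mitochondrial UMIs gave -0.05 for Cd74 in proximal tubule-like cells, and no filter -0.03 for Ciita in cDC-like cells. Leaving out 1 kidney gave -0.16 to 0.04 for H2-Ab1 and -0.07 to 0.23 for Cd74 in proximal tubule-like cells, -1.17 to 0.40 for H2-Ab1, -1.26 to 0.57 for Cd74, and -2.02 to 1.97 for Ciita in distal convoluted tubule-like cells, -0.49 to 0.43 for Ciita in B cell-like cells, -0.03 to 0.21 for H2-Ab1 and -0.27 to 0.35 for Ciita in cDC-like cells, and -0.46 to 0.41 for Ciita in macrophage-like cells. The cause was not tested. Of the other alternatives for single genes, 778 kept direction and call, 25 gained a call, and 14 lost it. Shares of cells with a UMI moved beyond their spread in 49 cases and not in 23 when cells were thinned to 500 UMIs or not at all.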

Other observations

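Class II RNA was also measured in classes that entered no test. Stroma-like cells, 24 to 72 per kidney, held 35.1 and 278.6 CPM of Cd74 in naive, 2626 and 3362 CPM in rejecting, and 3603 and 2218 CPM in tolerized kidneys. Ciita in these cells was at 2.19 CPM and 0 UMIs in naive, 73.9 and 36.2 CPM in rejecting, and 49.4 and 54.7 CPM in tolerized kidneys. The naive kidneys were thus the lowest for both genes, and rejecting and tolerized kidneys overlapped. Monocyte-like cells of transplanted kidneys held 8695 to 10580 CPM of Cd74 and 107.9 to 199.9 CPM of Ciita. In the 43 and 47 naive monocyte-like cells Cd74 was at 8886 and 1749 CPM, and 3 and 0 UMIs of Ciita were found. Plasmacytoid dendritic cell-like cells, 22 to 46 per transplanted kidney, held 5537 to 7524 CPM of Cd74.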
